A study of Arabidopsis thaliana with 12 samples.

Results

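The comparison described here is a rise of temperature from 22 to 26 °C in seedlings kept in white light with supplemental far-red light. Its members are the 3 arrays titled with far-red light at 26 °C and the 3 titled with far-red light at 22 °C, that is 6 of the 12 arrays of the series. All 12 arrays carried RNA of aerial seedling parts, from Arabidopsis thaliana of the Columbia accession and wild-type genotype. Per the labels, continuous white light and 22 °C were given to every plant for the first 9 days, with a fluence rate written as 80 mmol per square metre and second. For the next 24 h the far-red groups received the same white light plus far-red light written as 6 in the same unit, at 22 °C (WFR22) or at 26 °C (WFR26), so that all plants were 10 days old at harvest. The other 6 arrays came from plants that spent these 24 h in white light alone at 22 °C (WL22) or 26 °C (WL26). The labels name no mutant, transgene or chemical for any group. The far-red light is therefore shared by both groups of the comparison, and the temperature of the last 24 h is what differs. The arrays of a group are labelled biological replicates, and the labels say no more about how separate they were, so p-values measure the spread between these arrays.

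Far-red light reflected by leaves tells a plant that neighbours are near, because it turns the photoreceptor phytochrome B into its inactive form. Warmth also speeds the loss of active phytochrome B, and both signals are known to release PIF transcription factors, which turn on auxin synthesis genes and lengthen stems and petioles. Warm ambient temperature is known as well for lowering cold-protective genes and for raising some chaperones, although 26 °C lies well below a heat shock for this species.

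Values are log2 expression per probe set, from 3.34 to 14.83 over the table, and a difference of 1 on that scale is a 2-fold change. Of 22810 probe sets, 64 controls were left out and 22746 were tested. A single gene was found for 13513 of them, covering 13356 genes. A list gene counts as measured below only where such a probe set names it alone. The medians of the 6 far-red arrays lay between 6.98 and 7.01. Over probe sets, far-red arrays of the same temperature correlated at 0.9954 to 0.99774 (6 pairs) and arrays of different temperature at 0.99473 to 0.99683 (9 pairs), as a description across genes. The first principal component of the 6 arrays held 33.9% of the variance and placed the 3 arrays from 22 °C at 8.07 to 15.0 and the 3 from 26 °C at -14.0 to -8.31. The 3′ minus 5′ signal of the GAPDH control, a sign of RNA integrity, was 0.53, 0.75 and 0.86 at 22 °C and 0.76, 0.90 and 0.77 at 26 °C, so the groups overlapped. Leaf and other green tissue markers were strong, with RCA, the activase of Rubisco, at 14.39 to 14.47 and the 5 measured green tissue markers differing by -0.15 to 0.05 between temperatures. The root hair expansins EXPA7 and EXPA18, the 2 measured of 40 root markers, stayed low at 4.78 to 5.65 and differed by -0.07 and -0.15. In whole aerial parts, fewer cells of a type and less RNA per cell cannot be told apart.

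Warming with far-red light was accompanied by changes in a small share of probe sets, in both directions. Calls required a limma p under 0.05 after Benjamini-Hochberg adjustment over everything tested, and 250 probe sets met this, or 1.1%. Of these, 127 (0.558%) were higher and 123 (0.541%) were lower at 26 °C, and 3217 had an unadjusted p under 0.05. Most changes were small, with a median size of 0.45 on the log2 scale, and 191 of the calls (76.4%) were under 1.5-fold. A change of over 2-fold was found for 14 called probe sets, of which 9 were higher and 5 lower. The values of the 3 arrays at 26 °C did not overlap those of the 3 at 22 °C in any of the 250 calls, while 19.4% of all probe sets had such groups. The calls were chosen on these same arrays, so this describes them and lends them no support. The median difference over all tested probe sets was 0.0030.

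The calls held 128 probe sets with a single gene, each a different gene, of which 69 were higher and 59 lower. The other 122 calls are unnamed here or name several genes, and 8 of them exceeded 2-fold, within differences of -1.91 to 1.58. Of the 128 genes, 25 carry a name beyond their locus number in the annotation used, and the other 103 are given by locus number without a role.

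Chaperones held the clearest named rises. AT5G48570 encodes ROF2, also called FKBP65, a peptidyl-prolyl isomerase of the FK506-binding family that is known to be induced by heat and to work with Hsp90. Its log2 values were 5.88, 5.83 and 5.77 at 22 °C against 7.12, 6.99 and 7.02 at 26 °C. All 3 warm arrays lay more than 1 log2 unit above all 3 cool ones, and the gene rose by 1.22 ± 0.159 (SE), or 2.32-fold (limma, adjusted p = 0.00369). Hop3, a co-chaperone that links Hsp70 and Hsp90, had values of 4.40, 4.59 and 4.55 at 22 °C and of 5.51, 5.39 and 5.29 at 26 °C. Its 22 °C values were low, below the lower quartiles of those arrays (4.77, 4.73 and 4.83). Here too the groups stood apart, and the rise was 0.89 ± 0.0985 (SE), or 1.85-fold (limma, adjusted p = 0.000779).

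Among heat shock and chaperone genes, 11 of 68 written were measured and these 2 were the called ones, both higher. Over all probe sets 1.1% were called, and the list was chosen with earlier results known. The median of the list was 0.05, beside 0.0051 over all single genes, and 8 members were positive and 3 negative. Hop1 and Hop2, the close relatives of Hop3, differed by -0.01 and 0.02. The endoplasmic reticulum chaperones CRT1b and ATERDJ3B gave -0.10 and 0.16, and the small heat shock protein ATHSP22.0 lay at 4.42 to 4.72 on the 6 arrays with a difference of 0.13. HSA32 gave 0.13 and Fes1A, a helper of Hsp70, gave 0.05. HSP101 and HSP90.1 were not analysed here because no probe set names them alone in the annotation used. That annotation leaves 8730 of the 22746 tested probe sets unnamed, so the array may still measure these genes. The unnamed calls may likewise hold members of this list.

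**Figure D1:**
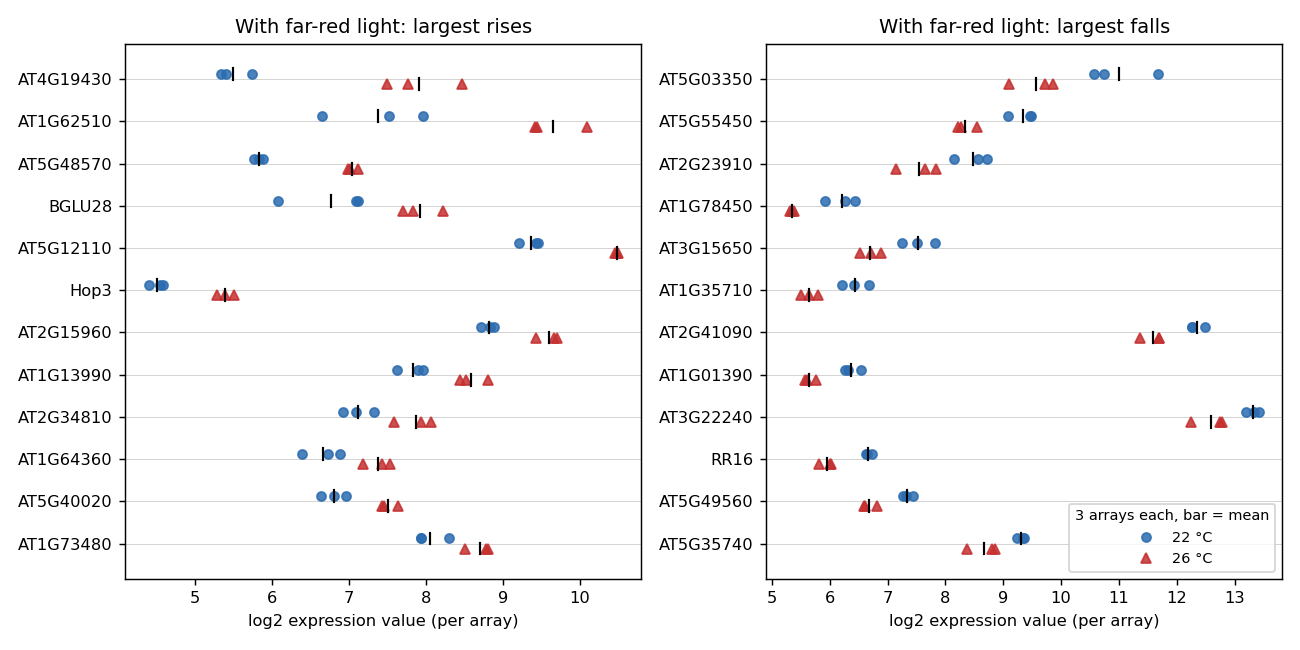
Log2 expression values (x axis) of the 12 called single genes with the largest rises (left) and the 12 with the largest falls (right) at 26 against 22 °C, all with far-red light. Circles are the 3 arrays at 22 °C, triangles the 3 arrays at 26 °C and bars the group means. That the arrays of the 2 temperatures do not overlap was a condition for choosing the 24 genes. AT4G19430 moves farthest, from 5.49 to 7.91.

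The largest rise of any called probe set belonged to AT4G19430. It had log2 values of 5.4, 5.75 and 5.33 at 22 °C and of 7.49, 8.46 and 7.77 at 26 °C. Replicate 2 was the highest array of both groups, and all warm arrays lay far above all cool ones. The difference was 2.42 ± 0.186 (SE), or 5.34-fold (limma, adjusted p = 1.95e-05). AT1G62510 was more variable, with 7.52, 7.96 and 6.65 at 22 °C and 9.41, 10.10 and 9.45 at 26 °C. Its cool arrays spread over more than a unit without reaching the warm ones, and the rise was 2.28 ± 0.251 (SE), or 4.85-fold (limma, adjusted p = 0.000779). AT5G12110 was the most even of the strong rises, with 9.21, 9.44 and 9.46 at 22 °C against 10.46, 10.49 and 10.50 at 26 °C. It rose by 1.11 ± 0.0843 (SE), or 2.16-fold (limma, adjusted p = 1.95e-05).

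The remaining large rises among locus-only genes lay between 0.65 and 0.78. AT2G15960 moved from 8.84, 8.72 and 8.89 to 9.43, 9.70 and 9.67, a rise of 0.78 (limma, adjusted p = 0.000634). AT1G13990, AT2G34810, AT1G64360, AT5G40020 and AT1G73480 rose by 0.76, 0.75, 0.71, 0.71 and 0.65, with adjusted p-values in limma from 0.00284 for AT5G40020 to 0.0456 for AT1G64360.

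AT5G03350 had the largest fall among single genes, from 11.67, 10.74 and 10.56 at 22 °C to 9.09, 9.72 and 9.87 at 26 °C. In both groups replicate 1 was the extreme array, the highest at 22 °C and the lowest at 26 °C. The gene fell by 1.43 on the log2 scale with an SE of 0.314 (limma, adjusted p = 0.0454), and without WFR22 replicate 1 the adjusted p was 0.147. AT5G55450 was steadier, with 9.46, 9.49 and 9.08 against 8.55, 8.27 and 8.21, and fell by 0.998 on the log2 scale (limma, adjusted p = 0.00154). AT2G23910 fell by 0.93, AT1G78450 by 0.86, AT3G15650 by 0.82 and AT1G35710 by 0.80, with adjusted p-values in limma of 0.0183, 0.00975, 0.0181 and 0.0396. AT2G41090, AT1G01390 and AT3G22240 fell by 0.76, 0.73 and 0.73, and the first and last of these were abundant at both temperatures, with lowest values of 11.36 and 12.24. AT5G49560 and AT5G35740 fell by 0.66 and 0.63.

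Auxin and cytokinin genes each held 1 call, where 1.1% of all probe sets were called. YUC2, a flavin monooxygenase that carries out the last step of auxin synthesis from indole-3-pyruvate, read 6.14, 6.16 and 6.17 at 22 °C and 6.6, 6.49 and 6.55 at 26 °C. The cool arrays were nearly equal and the warm arrays all lay above them, and the rise was 0.39 ± 0.0766 (SE), or 1.31-fold (limma, adjusted p = 0.0286). Leaving out any 1 of the 6 far-red arrays took the adjusted p to between 0.0613 and 0.0979. Of 48 auxin synthesis, conjugation and transport genes written, 9 were measured, 6 were positive and the median was 0.09. WES1, which conjugates auxin to amino acids, had values of 8.16, 8.01 and 8.22 against 8.52, 8.37 and 8.81, a difference of 0.43 that did not pass the test (limma, adjusted p = 0.0837). YUC6 and the auxin-conjugating enzyme GH3.3 gave 0.19 and 0.16, and YUC4 gave -0.02.

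Auxin response genes showed no call among 10 measured of 55 written, with 6 positive, 4 negative and a median of 0.01. IAA29, an Aux/IAA repressor that marks shade and warmth responses, was high at both temperatures, with 8.08, 7.86 and 8.18 at 22 °C and 7.88, 7.98 and 8.51 at 26 °C. Its groups overlapped, and the difference of 0.09 ± 0.16 (SE) did not pass the test (limma, adjusted p = 0.869). In white light alone the IAA29 means were 5.89 at 22 °C and 6.05 at 26 °C. IAA20 gave 0.32 and HAT2, a homeodomain factor of the shade response, gave 0.31, neither of them called. PIF4, YUC8, HFR1, ATHB2 and FT were not analysed here because no probe set names them alone in the annotation used, though the array may measure them.

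RR16, a type-A response regulator that cytokinin induces and that damps the cytokinin response, had values of 6.64, 6.73 and 6.64 at 22 °C and of 6.01, 5.82 and 6.02 at 26 °C. It fell by 0.72 on the log2 scale with an SE of 0.127, or 1.64-fold lower (limma, adjusted p = 0.0181). ARR15, another type-A regulator and the other measured gene of the 32 cytokinin genes written, read 6.53, 6.63 and 6.59 against 6.22, 6.31 and 6.11. Its groups stood apart as well, as did those of 19.4% of all probe sets. The ARR15 difference of -0.37 did not pass the test (limma, adjusted p = 0.17). The call of RR16 ended without WFR22 replicate 1 or 2 or WFR26 replicate 2 or 3, at adjusted p-values of 0.054 to 0.0977.

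**Figure D2:**
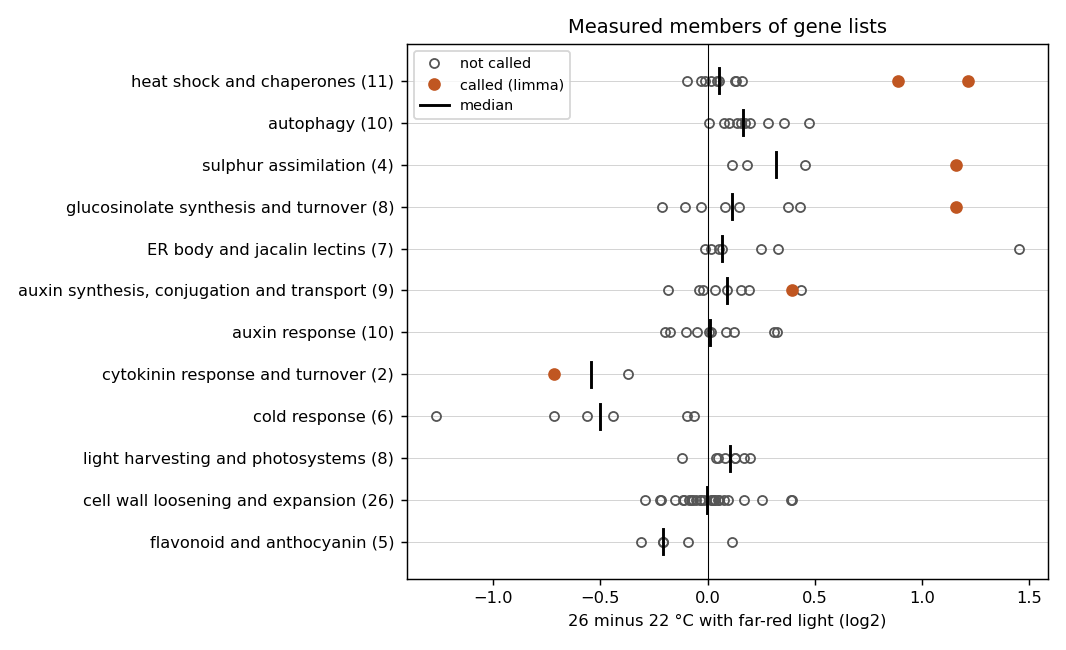
Difference between 26 and 22 °C with far-red light (log2, x axis) for the measured members of 12 gene lists, with the number of measured members in brackets. Filled points are genes called by limma, open points are not called and black bars are list medians; the cold response list lies wholly below 0 with no called member, while ROF2 and Hop3 stand far from the other chaperones.

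Sulphur and glucosinolate genes held 1 call between them, where 1.1% of all probe sets were called. It was BGLU28, a beta-glucosidase known as a marker of sulphur shortage and counted in both lists. Its values were 6.08, 7.09 and 7.12 at 22 °C and 7.83, 8.23 and 7.71 at 26 °C, and WFR22 replicate 1 was the lowest array. The rise was 1.16 ± 0.25 (SE), or 2.23-fold (limma, adjusted p = 0.0446). Without WFR22 replicate 1 the adjusted p was 0.108, and without WFR26 replicate 2 it was 0.169. All 4 measured of 34 sulphur assimilation genes were positive, with a median of 0.32. APS3, an ATP sulphurylase that activates sulphate, read 9.35, 9.73 and 9.56 against 10.03, 9.97 and 10.01, a difference of 0.46 that did not pass the test (limma, adjusted p = 0.0611), and APS4 and the sulphite reductase SIR gave 0.19 and 0.11.

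For glucosinolates, the sulphur-rich defence compounds of the cabbage family, 8 of 55 genes were measured, 5 of them positive with a median of 0.11. BCAT4, which starts the lengthening of methionine for their side chains, had 11.03, 11.04 and 11.12 at 22 °C and 11.40, 11.55 and 11.54 at 26 °C. UGT74B1, which adds the glucose, had 10.28, 10.16 and 10.26 against 10.60, 10.52 and 10.71. Both genes had groups that stood apart, as had 19.4% of all probe sets. Their differences of 0.43 and 0.38 did not pass the test (limma, adjusted p = 0.0584 and 0.0709). The transporters GTR1 and GTR2 gave -0.21 and -0.03.

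Cold response genes had no call, yet all 6 measured of the 33 written were negative, with a median of -0.50 beside 0.0051 over all single genes. The list was chosen with earlier results known, so its signs describe it and are no test. COR15A, a chloroplast protein that protects membranes during freezing, read 12.07, 11.54 and 11.89 at 22 °C and 10.61, 11.27 and 11.46 at 26 °C. Every warm array was below every cool one, as in 9.67% of all probe sets. The COR15A difference of -0.72 ± 0.177 (SE) did not pass the test (limma, adjusted p = 0.0673). LTI30, a dehydrin, had 7.03, 6.80 and 8.37 against 5.86, 6.36 and 6.18, a difference of -1.27 in which WFR22 replicate 3 stood well above the other arrays (limma, adjusted p = 0.119). COR27, a cold-induced regulator of the clock, gave -0.56 with groups apart, and COR15B gave -0.44 with groups that overlapped. The dehydrin COR47 and the zinc finger factor STZ gave -0.07 and -0.10. Leaving out 1 array at a time kept the list's median between -0.60 and -0.33, and without WFR22 replicate 2 the signs were 1 positive and 5 negative.

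Autophagy genes likewise had no call, and all 10 measured of the 23 written were positive, with a median of 0.16. Without WFR22 replicate 2 or 3 or WFR26 replicate 3 the signs were 9 positive and 1 negative. Most of them encode ATG8, the ubiquitin-like protein that is attached to the membrane of forming autophagosomes. ATG8E read 7.44, 7.60 and 7.34 at 22 °C and 7.93, 8.01 and 7.85 at 26 °C, a difference of 0.47 ± 0.108 (SE; limma, adjusted p = 0.052). ATG8B and ATG8D gave 0.36 and 0.28, and ATG3, the enzyme that attaches ATG8, gave 0.20. In 6 of the 10 genes the arrays at 26 °C all lay above those at 22 °C, where 9.75% of all probe sets did so. This list, too, was chosen with earlier results known, so these counts describe it and are no test. The smallest difference of the list was 0.01 for APG8A.

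Calls were also found among genes of sugar metabolism and of the chloroplast. ATSPS4F, a sucrose phosphate synthase, read 10.61, 10.69 and 10.75 at 22 °C and 10.15, 10.33 and 10.41 at 26 °C, and fell by 0.39 on the log2 scale (limma, adjusted p = 0.0374). F2KP, the enzyme that makes and removes fructose 2,6-bisphosphate, a brake on sucrose synthesis, fell by 0.38, from 10.55, 10.51 and 10.57 to 10.13, 10.19 and 10.15. Its arrays were close to each other at each temperature (limma, adjusted p = 0.0134). TMT1, which loads hexoses into the vacuole, fell by 0.36, while SFP2, of the sugar porter family, rose by 0.32 (limma, adjusted p = 0.0356 and 0.0456). Of 13 measured of 63 sugar and starch genes, ATSPS4F was the 1 called, beside 1.1% of all probe sets. Of the 13, 7 were positive, with a median of 0.01. F2KP, TMT1 and SFP2 are not in that list and were picked after their values were seen. Leaving out any 1 far-red array ended the calls of ATSPS4F, TMT1 and SFP2, at adjusted p-values in limma up to 0.111, 0.127 and 0.171. The call of F2KP ended without WFR26 replicate 2 or 3 (limma, adjusted p = 0.0523 and 0.0617).

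PGRL1B, a thylakoid protein of cyclic electron flow around photosystem I, rose by 0.58, from 9.63, 9.66 and 9.86 to 10.20, 10.28 and 10.43 (limma, adjusted p = 0.0105). The chloroplast genes psbM and psbE, for a small subunit of photosystem II and for a subunit of its cytochrome b559, rose by 0.42 and 0.34 (limma, adjusted p = 0.019 and 0.0441). They were the 2 calls among 69 measured genes of the chloroplast genome, of which 44 were positive with a median of 0.03, beside 1.1% called over all probe sets. This family was chosen after its values were seen. AT4G38100 encodes CURT1D, which shapes the edges of thylakoids, and fell by 0.45 from 10.19, 10.18 and 10.17 to 9.90, 9.71 and 9.60 (limma, adjusted p = 0.0454). None of 8 measured nuclear genes for light harvesting and photosystems was called (differences -0.12 to 0.20), nor was any of 10 chlorophyll genes (-0.17 to 0.12).

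Among other named calls, ASPGB1, an asparaginase that releases ammonia from asparagine, rose by 0.55, from 6.49, 6.61 and 6.40 to 6.95, 7.10 and 7.10 (limma, adjusted p = 0.00975). The transcription factors ALC, a bHLH protein named for its part in fruit opening, and MYBC1 rose by 0.55 and 0.53 (limma, adjusted p = 0.0108 and 0.0454). When 1 array was left out, the call of ALC ended for 2 of the 12 arrays and that of MYBC1 for 10. SIS, named for salt induction, rose by 0.63 and the cytochrome P450 gene CYP71B26 by 0.56. CP5 rose by 0.45 and AT3G13672 (SINA2) by 0.44. The falls were those of the carboxypeptidase-like gene SCPL27 by 0.44, the glycosyltransferase gene UGT72B3 by 0.38, 2A6 by 0.45 and THO7, for a subunit of the THO complex of mRNA export, by 0.34. A second probe set of 2A6 gave 0.24 and was not called (limma, adjusted p = 0.407), so the probe sets of 2A6 disagree. The symbol THO7 is shared by another locus, whose probe set gave -0.29 and was not called (limma, adjusted p = 0.306).

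Over all 33 gene lists, 185 different genes were measured, and 6 of them (3.24%) were called, beside 1.1% of all probe sets, in lists chosen with earlier results known. The 6 were ROF2, Hop3, BGLU28, YUC2, RR16 and ATSPS4F. No call was found among 26 measured cell wall loosening genes, 13 positive and 13 negative, where the expansin EXPA8 gave 0.39 (limma, adjusted p = 0.079) and the wall enzyme XTH19 gave -0.29. None was found among 9 cellulose and hemicellulose genes either, although CSLA01, of a family that makes glucomannan, read 6.61, 6.36 and 6.6 against 7.42, 8.19 and 7.33, a difference of 1.12 (limma, adjusted p = 0.0543). Lists of 4 shade markers, 4 salicylate immunity genes, 4 clock genes and 5 flavonoid genes also held no call, with medians of 0.03, -0.04, -0.09 and -0.21. Jasmonate genes varied between arrays of the same temperature: PDF1.2, a defensin, read 5.69, 8.06 and 6.87 at 22 °C and 6.10, 8.67 and 5.2 at 26 °C. THI2.1, a thionin, gave 1.02 with overlapping groups (limma, adjusted p = 0.416).

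ER body genes, for the endoplasmic reticulum bodies that store a beta-glucosidase against herbivores, held no call among 7 measured of 17. JAL23, a jacalin-type lectin, read 5.21, 5.73 and 5.86 at 22 °C and 6.19, 8.22 and 6.74 at 26 °C, where WFR26 replicate 2 stood far above the other arrays. Its difference of 1.45 ± 0.464 (SE) did not pass the test (limma, adjusted p = 0.153). The beta-glucosidase PYK10 and the ER body proteins NAI1 and NAI2 gave 0.07, 0.05 and 0.02. Of the 7 members 6 were positive with far-red light, but 3 were so without WFR22 replicate 1.

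The same warming in white light alone was set beside these values, using the 6 arrays that share no sample with the far-red ones. There, 139 probe sets (0.611%) were called by the same test, 103 higher (0.453%) and 36 lower (0.158%). In 59 probe sets the call was made in both lights in the same direction, 40 higher and 19 lower, which is 23.6% of the far-red calls and 42.4% of the white light calls. No probe set was called in opposite directions. Of the 250 far-red calls, 238 (95.2%) had the same sign in white light, where 61.5% of all probe sets did. The higher calls had a median of 0.45 with far-red light and 0.28 in white light, and the lower calls -0.45 and -0.24. Since the calls were chosen on the far-red values, the smaller medians in white light are a description with no test.

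**Figure D3:**
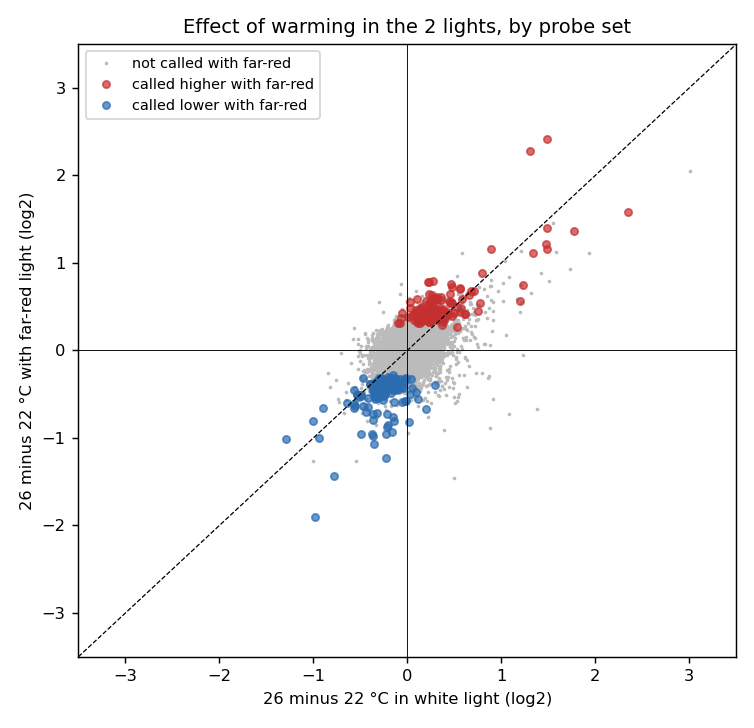
Difference between 26 and 22 °C with far-red light (y axis) against the difference in white light (x axis), both log2, with 1 point per tested probe set. Coloured points are the 127 called higher and 123 called lower with far-red light, grey points were not called and the dashed line marks equal differences; 238 of the 250 coloured points have the same sign on both axes.

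The difference of the warming effects between the lights was tested directly, as an interaction, and no probe set was called by limma. The smallest adjusted p was 0.0891, and 1254 probe sets (5.51%) had an unadjusted p under 0.05, as had 91 of the 250 far-red calls. Those calls were chosen on the far-red difference, which is part of the interaction. Their share is raised by that choice and is no evidence of an interaction. In white light ROF2 rose by 1.47 and Hop3 by 0.79 (limma, adjusted p = 0.000772 and 0.0023). AT5G12110 rose by 1.34 and AT4G19430 by 1.48 there, and AT5G55450 fell by 0.94. Of the 12 largest rises, 7 were also called in white light, and of the 12 largest falls, 2 were. Those 2 were AT5G55450 and AT5G49560.

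Among the 26 called genes that the naming rule picks, AT2G15960 had the smallest unadjusted p of the difference. Its means were 8.82 at 22 °C and 9.60 at 26 °C with far-red light and 9.40 and 9.63 in white light, so WFR22 stood below the other 3 conditions. The effects of 0.78 and 0.23 differed by 0.55 ± 0.116 (SE; limma, unadjusted p = 0.000301, adjusted p = 0.902). AT3G15650 showed the reverse, with means of 7.52 in WFR22, 6.71 in WFR26, 6.86 in WL22 and 6.88 in WL26, and WFR22 above the rest. Its effects of -0.82 and 0.02 differed by -0.84 ± 0.206 (SE; limma, unadjusted p = 0.00115, adjusted p = 0.902). ASPGB1 and psbM had effects of 0.02 and -0.05 in white light beside 0.55 and 0.42 with far-red light, and YUC2 had 0.13 beside 0.39. After adjustment none of these differences passed, with adjusted p-values of 0.902 for each of the 5.

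In white light the medians of the cold response and autophagy lists were -0.55 and 0.14. COR15A differed by -0.68 there (limma, adjusted p = 0.109), and ATG8E by 0.16. For ER body genes the white light median was 0.53 beside 0.07 with far-red light. NAI2, JAL34 and PYK10 gave 0.53, 0.55 and 0.47 in white light and 0.02, -0.01 and 0.07 with far-red light, and the interaction had unadjusted p-values of 0.0112, 0.00982 and 0.0244 and an adjusted p of 0.902 for each in limma. Flavonoid genes had a median of 0.15 in white light and -0.21 with far-red light. DFR, an enzyme of anthocyanin synthesis, gave 0.33 and -0.31, an interaction with an unadjusted p of 0.0138 that did not pass adjustment.

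**Figure D4:**
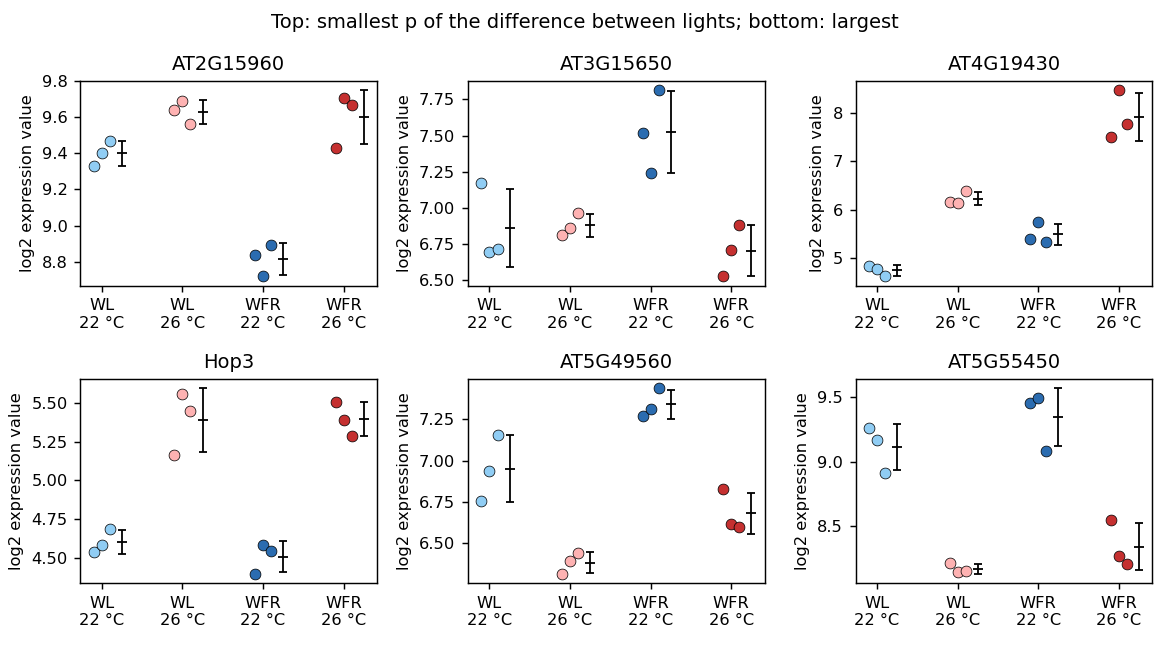
Log2 expression values (y axis) per array in white light (WL) and white plus far-red light (WFR) at 22 and 26 °C, with mean and SD of 3 arrays beside the points. The upper genes had the 3 smallest and the lower genes the 3 largest unadjusted p-values of the difference between lights among the 26 called genes that the naming rule picks; for AT2G15960 the WFR 22 °C arrays lie below the other 9, and for Hop3 both 26 °C groups lie near 5.39.

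The number of calls depended on single arrays. Without WFR26 replicate 2 it was 40 and without WFR26 replicate 3 it was 46, and without WFR26 replicate 1 it was 131. The split of higher to lower calls was then 20 to 20, 18 to 28 and 78 to 53. Leaving out WFR22 replicate 1, 2 or 3 gave 101, 116 or 132 calls. White light arrays enter through the shared estimate of spread: without WL26 replicate 2 the count was 143, and without WL22 replicate 3 it was 379. Of the 26 called genes that the naming rule picks, 8 kept a rounded adjusted p under 0.05 whichever array was left out. They were AT4G19430, AT1G62510, AT5G48570, AT5G12110, Hop3, AT2G15960, AT5G40020 and AT5G55450. AT5G49560 came to at most 0.05 in limma after rounding and was still under the threshold before rounding. The others lost their call for 1 to 10 of the 12 arrays, with adjusted p-values in limma of at most 0.173. Of the 25 called genes with a name, ROF2 and Hop3 were the 2 that kept the call throughout. The directions of all 26 stayed as given without any 1 array.

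**Figure D5:**
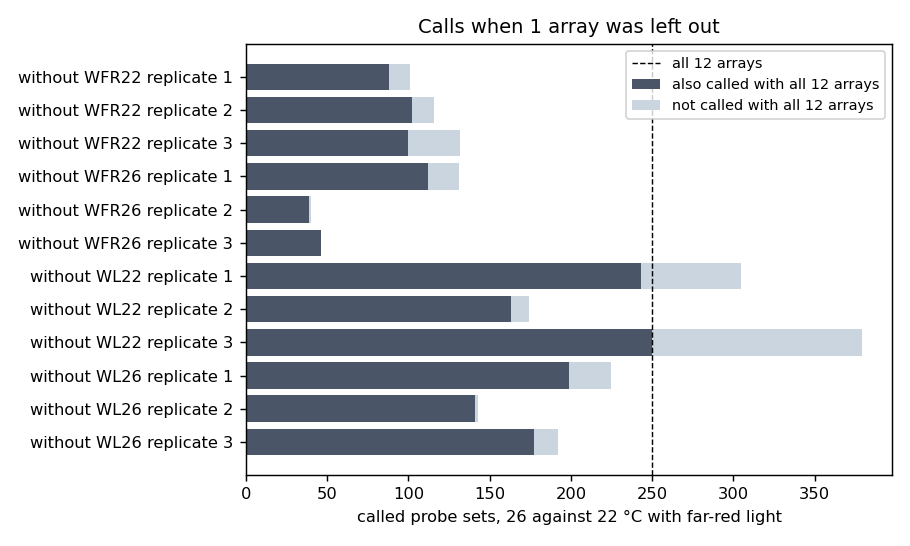
Number of probe sets called at 26 against 22 °C with far-red light (x axis) when 1 of the 12 arrays was left out (y axis). The dark part of each bar was also called with all 12 arrays and the pale part was not; the dashed line marks the 250 calls of all 12 arrays, and the shortest bars, 40 and 46, are those without WFR26 replicate 2 or 3.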

How the data were processed

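Gene expression was measured on 12 one-colour arrays. The deposited table holds log2 values, 1 per probe set and array, and was used as the authors gave it. RMA, affy and MAS5 are named per the submitters' processing notes; the sources used here do not say which of them made these values. Probe sets were named from the platform annotation, updated through RefSeq records of TAIR10.1 (13436 of 13513 single genes; 77 kept the platform's name), which were used for names only; 503 had several genes and 8730 are unnamed here.

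All 12 arrays entered 1 linear model (limma 3.58.1 under R 4.3.3, functions lmFit and eBayes) that had a mean for each condition, leaving 8 residual degrees of freedom. The two-sided p-values were adjusted by Benjamini-Hochberg over 22746 probe sets, and 3 comparisons were fitted: warming with far-red light, warming in white light and their difference. Errors are the model's SE. The fit was also run on simulated arrays with independent noise. Its recovery of changes is not given here, so that run lends the calls no support. Arrays give no read depth, so their number limits the precision.

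The members, gene lists and alternatives were chosen with earlier results of these data known. The naming rule takes, of the called single genes, the 12 that rose most and the 12 that fell most, if their groups stood apart, up to 3 called members of each list, and 11 set genes, of which YUC2, IAA29 and COR15A have a probe set of their own. Uncalled list members and the called genes with a name were picked after their values were seen, as was the chloroplast genome family. A list gene is represented by its probe set with the highest mean. Deviations from the group means correlated at -0.01, 0.09 and 0.10 between far-red arrays of the same replicate number. Between different numbers they correlated at -0.25 to 0.16. With 3 arrays per group these values cannot show whether replicate numbers pair the arrays. Alternatives were 4 scalings, 2 filters on low values, 3 other moderations or weights, a replicate block, the 6 far-red arrays alone and leaving out each array.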

Additional observations from a re-analysis of the deposited data

How the results depend on the processing

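Between 272 and 321 probe sets were called under the 4 other scalings, without the lowest 25% of probe sets, with robust moderation and with array weights. With array medians subtracted the split was 160 higher to 119 lower. The next 4 alternatives moved the count by over 1.5 times. Without the lowest 50% of probe sets, where fewer were tested, 422 were called (220 higher, 202 lower), and with a trend in eBayes 429 (221 and 208). With a replicate block 138 were called (66 and 72), and with only the 6 far-red arrays, which leaves fewer degrees of freedom, 147 (72 and 75), of which 113 were among the 250. Leaving out 1 array gave 40 to 379 calls, 18 to 195 higher and 20 to 184 lower, and 39 to 250 of them were among the 250; the interaction had no call. Array weights gave 2 interaction calls, both unnamed probe sets, at -1.10 and -0.74 (limma, adjusted p = 0.0382 and 0.00884); the cause was not tested. Of the 26 called genes named by the rule, 19 kept their call in every alternative, other than leaving out arrays, that tested them; 8 of these 19 lay among the lowest 50% of probe sets and so were not tested in that alternative. BGLU28 and AT5G03350 lost it with robust moderation, a replicate block and the 6 arrays alone, at adjusted p-values up to 0.116 and 0.139.

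Signs turned only among uncalled values. The difference of IAA29 ran from -0.11 to 0.21 without 1 array. The difference of warming effects ran from -0.0722 to 0.46 for BGLU28, -0.0189 to 0.18 for Hop3, -0.19 to 0.0434 for AT5G55450 (0.0104 with array weights), -0.19 to 0.00726 for AT5G49560, -0.27 to 0.0418 for IAA29 and -0.21 to 0.21 for COR15A. The sign count of light harvesting genes, 7 to 1, was 5 to 3 after quantile normalisation. With 3 arrays per group, small changes can be missed, and the smallest called difference was 0.27.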

Other observations

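The called genes were looked up by their place along the chromosomes. Among 5878 pairs of measured genes that neighbour each other in RefSeq's TAIR10.1 records, 2 pairs had both genes called with far-red light, and both pairs rose together. AT1G64360 and AT1G64370 rose by 0.71 and 0.34, and AT2G14900 and AT2G14910 rose by 0.41 and 0.43. No test was run on these pairs.

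The defensin genes PDF1.2 and PDF1.2b varied more within a temperature than between them. PDF1.2b read 6.81, 9.93 and 8.35 at 22 °C and 7.82, 10.45 and 6.83 at 26 °C, so replicate 2 was the highest array of both groups, as it was for PDF1.2. The thionin THI2.1 was also highest in replicate 2, at 5.15 among the 22 °C arrays and 6.67 among the 26 °C arrays.

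Larger gene families had few calls, where 1.1% of all probe sets were called. Among 20 BGLU genes and 26 CYP genes 1 each rose, among 29 SCPL and 47 UGT genes 1 each fell, and the medians of these 4 families lay between -0.03 and 0.02.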
